A study of Rattus norvegicus with 9 samples.

Results

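The genes described here are the matrix metalloproteinases (MMPs), their tissue inhibitors (TIMPs), and the ADAM, ADAMTS and ADAMTS-like proteins that were measured in rat liver. Members were taken by symbol alone, as probe sets annotated with a single gene whose symbol begins with Mmp, Timp, Adam or Adamts, a rule that uses no expression value. This gave 53 of the 14377 genes on the arrays, read by 71 of 31042 probe sets, with 15 MMPs, 4 TIMPs, 18 ADAMs and 16 ADAMTS or ADAMTS-like genes. Where a gene had several such probe sets, the one that was brightest on average stands for it, and values are log2 signals. Total RNA of frozen liver was hybridized to Affymetrix arrays for the rat transcriptome (1 array for each animal) from 3 rats of the vehicle group (animals 3, 4 and 5), 3 rats injected with CCl4 (animals 1, 2 and 3) and 3 rats injected with CCl4 and treated with rottlerin (CCl4+Rot, animals 4, 5 and 6). According to the study's methods, the animals were male Sprague-Dawley rats. CCl4 is a hepatotoxin whose repeated injection produces liver fibrosis, both CCl4 groups received it, and rottlerin is a small molecule used here as an activator of the BK potassium channel. No group analysed here received rottlerin without CCl4. The comparison of CCl4 with vehicle addresses the response to injury, and that of CCl4+Rot with CCl4 the effect of rottlerin on it. Both share the 3 CCl4 arrays, and both comparisons with vehicle share the 3 vehicle arrays.

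MMPs are zinc-dependent endopeptidases that are made as inactive zymogens and, once activated, cleave collagens, elastin and other components of the extracellular matrix, while TIMPs bind their active sites. ADAMs are membrane-anchored relatives that shed growth factors, cytokines and receptors from the cell surface, and ADAMTS enzymes are secreted relatives that process procollagens and cleave proteoglycans. In fibrotic liver, activated hepatic stellate cells are known as a source of Mmp2, Timp1 and Timp2, and macrophages as the source of Mmp12. Many inducible MMP promoters carry a binding site for AP-1, the dimer of Fos and Jun proteins, close to the transcription start.

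Several of the inducible MMPs are neighbours in the rat genome. In the RefSeq annotation of GRCr8, Mmp13, Mmp12, Mmp1b, Mmp3, Mmp1, Mmp10, Mmp8, Mmp27, Mmp20 and Mmp7 follow each other on chromosome 8, and 6 of them (Mmp13, Mmp12, Mmp3, Mmp10, Mmp8 and Mmp7) were measured. RefSeq promoter sequences of 300 bases, from 250 before the start to 50 after it, were matched by symbol for 33 of the 53 members (36 promoters). The AP-1 motif TGACTCA was present on either strand in 6 of the 36 promoters (16.7%), those of Adam19, Mmp10, Mmp12, Mmp13, Mmp3 and Mmp7, against 4.63% of 33469 promoters of all genes. The AP-1-like motif TGAGTAA, known from the Timp1 promoter, was present in the promoters of Mmp3 and Timp1 (5.56%), against 2.90% of all promoters. The 2 motifs did not overlap in Mmp3. A TATAAA motif was present in 11 of the 36 promoters (30.6%), against 14.2% of all. Such matches describe sequence only. The stretches around the motif are shown for the genes of the chromosome 8 cluster, because the motif was shared by Mmp12 and by neighbours that were called absent on every array, and for Timp1, because it encodes their inhibitor and is among the genes described first below. They are written 5′ to 3′ on the gene's strand, and capitals mark the AP-1 motif or, in Timp1, the AP-1-like motif.
Mmp12, chr8:12866539-12866598, plus strand: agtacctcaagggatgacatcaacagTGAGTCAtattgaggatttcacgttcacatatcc
Mmp13, chr8:12782737-12782796, plus strand: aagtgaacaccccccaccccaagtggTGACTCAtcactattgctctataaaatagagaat
Mmp3, chr8:12925184-12925243, plus strand: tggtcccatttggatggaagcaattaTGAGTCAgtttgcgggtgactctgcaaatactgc
Mmp10, chr8:12974620-12974679, plus strand: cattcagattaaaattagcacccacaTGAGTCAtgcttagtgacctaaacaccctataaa
Mmp7, chr8:13132937-13132996, plus strand: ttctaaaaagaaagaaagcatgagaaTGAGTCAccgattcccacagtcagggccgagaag
Timp1, chrX:3771197-3771256, minus strand: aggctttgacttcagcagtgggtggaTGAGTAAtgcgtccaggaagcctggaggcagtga
The motif began at position -87 from the start in Mmp12, -66 in Mmp13, -71 in Mmp3, -61 in Mmp10, -80 in Mmp7 and -108 in Timp1. The promoter of Mmp8, which lies in the same cluster, held neither motif in this window, nor did those of Timp2 and Timp3.

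All 7 hepatocyte markers were called present on all 9 arrays. CCl4 replicate 3 stood apart from the other arrays. Its median log2 signal was 7.81, against 6.79 to 7.01 on the others, 12714 probe sets were called present on it, against 15550 to 16849 on the others, and it had the lowest array weight (0.193, against 0.571 to 2.06). It gave the highest signal of the 9 arrays for 25 of the 53 members (47.2%) and for 38.7% of all genes. Many of the differences below are therefore given also without it.

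Most of these genes were detected in liver on at least 1 array, but fewer of them than of all genes were detected on all 9. Of the 53 members, 37 were called present on at least 1 array (69.8%, against 74.7% of all genes). On at least 3 arrays 31 were called present (against 9811 of all 14377 genes), and on all 9 arrays 14 (26.4%, against 49.1%). The 14 were Mmp2, Mmp14, Mmp19, Mmp24, Timp1, Timp2, Timp3, Adam10, Adam15, Adamts1, Adamts7, Adamts12, Adamtsl2 and Adamtsl4. At least 1 present call was made for 12 of 15 MMPs, all 4 TIMPs, 9 of 18 ADAMs and 12 of 16 ADAMTS and ADAMTS-like genes. Of 7 somatic ADAMs with a protease motif 6 were detected, of 8 known from the reproductive tract 2 (Adam1a and Adam18), and of 3 without protease activity 1 (Adam11). The 16 genes whose brightest probe set had no present call were Mmp7, Mmp10, Mmp11, Adam2, Adam3a, Adam4, Adam6, Adam7, Adam22, Adam23, Adam32, Adam33, Adamts6, Adamts8, Adamts16 and Adamtsl5. A second probe set of Adam22, a neuronal adhesion protein, was called present on 6 arrays. Adam12, Adamts2, Adamts13 and Adamts14 were not measured by a probe set of their own, nor were Mmp17 and Mmp28. The number of members called present was 20 to 25 on the vehicle arrays, 28 and 29 on CCl4 replicates 1 and 2, 18 on CCl4 replicate 3, and 29 or 30 on the CCl4+Rot arrays.

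**Figure D1:**
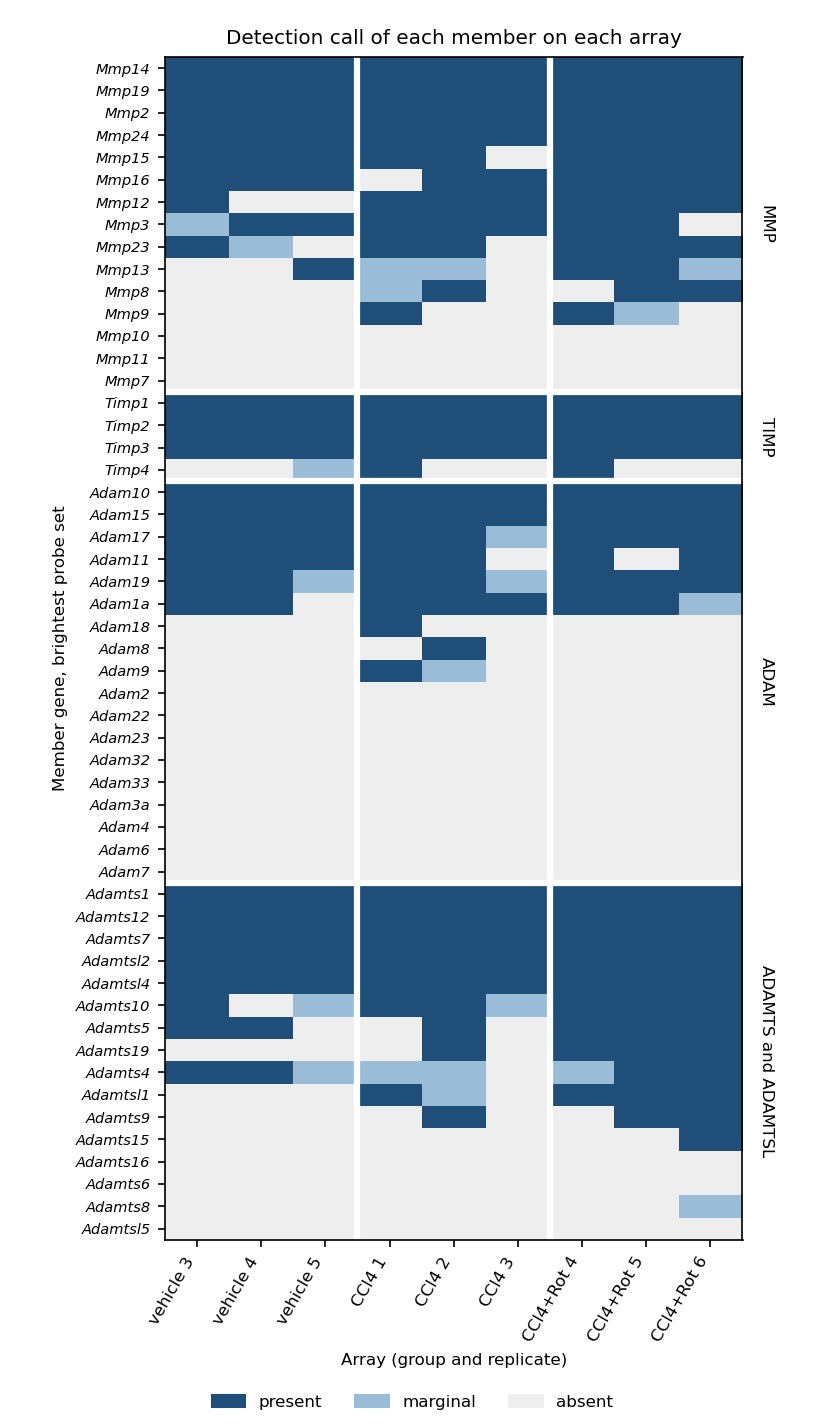
Detection call (present, marginal or absent) of the 53 members on each of the 9 arrays, with genes in rows grouped by family and arrays in columns grouped by treatment. The 14 members called present on all arrays form the solid rows, Mmp12 was called present on 1 vehicle array and on all 6 arrays of the CCl4 groups, and CCl4 replicate 3 has the fewest present calls (18).

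Calls required a Benjamini-Hochberg adjusted p below 0.05, taken over all probe sets, together with a difference of at least 1.5-fold. The limma test called no member between CCl4 and vehicle (0.0% of all probe sets), none between CCl4+Rot and CCl4 (0.00322% of all) and none between CCl4+Rot and vehicle (0.0258% of all). A second limma fit, in which the spread follows the signal and is estimated robustly (below, the robust fit), called 4 members between CCl4 and vehicle, all higher (Mmp12, Mmp2, Timp1 and Timp2), against 1.12% of all probe sets. It called none between CCl4+Rot and CCl4 (0.00322% of all). It called 5 between CCl4+Rot and vehicle, the same 4 and Adamtsl2, all higher, against 0.776% of all. When each array in turn was left out, this fit called from 1 member (without vehicle replicate 4 or 5) to 7 (without CCl4 replicate 1) between CCl4 and vehicle, and from 1 (without CCl4+Rot replicate 6) to 8 (without CCl4 replicate 1) between CCl4+Rot and vehicle. No share over all probe sets was taken for these left-out fits. An unadjusted p below 0.05 by limma was reached by 19 of the 53 members between CCl4 and vehicle (18 higher and 1 lower), against 12.4% of all probe sets. After centring each array on its median, 11 members were higher and 3 lower at this threshold. Without CCl4 replicate 3, 11 were higher and 2 lower. Among the 37 detected members, 21.6% were higher and 5.41% lower after centring, against 3.00% and 6.81% of detected genes. Without CCl4 replicate 3 these were 24.3% and 2.70%, against 8.68% and 5.09%. Detection itself can come from the group in which a gene is high. An unadjusted p below 0.05 was also reached by 3 members between CCl4+Rot and CCl4 (Timp3 and Adamtsl1 higher and Adam9 lower), against 6.63% of all, and by 15 between CCl4+Rot and vehicle (14 higher and 1 lower), against 8.31% of all.

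Groups of 3 rats that do not overlap were a more frequent pattern. Between CCl4 and vehicle, all CCl4 signals lay above all vehicle signals for 15 of the 36 members detected in these groups, against 13.2% of detected genes, and all lay below for 2 (Mmp15 and Timp3), against 11.1%. Of the 15, Adam9, Adamts9, Mmp8 and Mmp9 were called present in CCl4 and not in vehicle. They thus counted as detected only through the group in which they were high, which can also hold for other detected genes. After median centring 9 members were higher and 2 lower, against 4.04% and 16.7% of detected genes. Without CCl4 replicate 3 these were 17 and 2 members, against 19.5% and 17.4%, and without CCl4 replicate 1 the 2 directions came to 27 members together, against 42.5% of detected genes. Between CCl4+Rot and CCl4, 2 of 37 members were higher without overlap (Timp3 and Adamtsl1), against 6.92% of detected genes, and 2 lower (Adam9 and Mmp24), against 4.46%; after median centring these were 4 and 1, against 8.53% and 1.44%. Without CCl4 replicate 2 both directions came to 12 of 37 members (32.4%, against 24.9% of detected genes) and without CCl4 replicate 3 to 9 (24.3%, against 23.8%). They came to 8 without CCl4+Rot replicate 4 (21.6%, against 19.7%), and to 7 (18.9%) without CCl4 replicate 1 (26.2% of genes) or CCl4+Rot replicate 5 (17.6%), so that the shares of the members lay near those of all detected genes. Between CCl4+Rot and vehicle, 17 of 34 members were higher without overlap, against 17.9% of detected genes, and none was lower, against 11.2%. Of the 17, Adamts9, Adamts19, Adamtsl1 and Mmp9 were called present in CCl4+Rot and not in vehicle, so the same limit holds for them.

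Timp1 and Timp2 were higher in both CCl4 groups, whereas Timp3 was lower after CCl4 and at the vehicle level with rottlerin. Timp1 (Entrez gene 116510, chromosome X in the deposited annotation) encodes a secreted, cytokine-inducible inhibitor that is a known marker of liver fibrosis. Its log2 signals were 8.71, 8.24 and 8.50 in vehicle, 10.17, 10.09 and 9.98 in CCl4, and 9.54, 9.39 and 10.01 in CCl4+Rot. Both CCl4 groups lay clear of vehicle, and 1 of the 3 CCl4+Rot signals reached into the CCl4 range. Timp1 was 3.03-fold higher in CCl4 than in vehicle (1.60 ± 0.22 log2, SE, 3 arrays per group), with an adjusted p of 0.16 by limma and 0.0034 by the robust fit, which called it with any 1 array left out. The difference between CCl4+Rot and vehicle was 1.16 ± 0.22, with an adjusted p of 0.013 by the robust fit, lost when vehicle replicate 4 or 5 or CCl4+Rot replicate 6 was left out. CCl4+Rot differed from CCl4 by -0.43 ± 0.22, which was not called.

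Timp2 (Entrez gene 29543, chromosome 10) encodes the inhibitor that, beside blocking MMPs, takes part in the activation of pro-Mmp2 by Mmp14 at the cell surface. Its signals were 9.97, 9.56 and 9.55 in vehicle, 10.63, 11.14 and 10.48 in CCl4, and 11.06, 10.89 and 11.03 in CCl4+Rot. The CCl4 and CCl4+Rot ranges overlapped, and both were above vehicle. The difference was 1.06 ± 0.22 log2 between CCl4 and vehicle (2.08-fold, adjusted p of 0.22 by limma and 0.019 by the robust fit) and 1.30 ± 0.22 between CCl4+Rot and vehicle (2.45-fold, 0.19 and 0.0067). The robust calls held in 7 and 8 of the 9 fits with 1 array left out, the first being lost without vehicle replicate 4 or 5 and the second without CCl4+Rot replicate 6. A second Timp2 probe set gave 1.02 ± 0.71 and 1.03 ± 0.71. Its highest signal, called absent, came from CCl4 replicate 3, without which the first of these was 0.18. Timp3 (Entrez gene 25358, chromosome 7) is bound to the matrix and inhibits Adam17 as well as MMPs. It gave 9.00, 9.25 and 9.11 in vehicle, 8.70, 8.70 and 8.01 in CCl4, and 9.20, 9.36 and 9.14 in CCl4+Rot. Every CCl4 signal was below every other, with a difference from vehicle of -0.65 ± 0.22 (adjusted p of 0.33 by limma and 0.14 by the robust fit) and of CCl4+Rot from CCl4 of 0.76 ± 0.22 (0.71 and 0.41). Without CCl4 replicate 3 these differences were -0.42 and 0.53. Timp4, an inhibitor known mainly from heart and brain, was called present on CCl4 replicate 1 and CCl4+Rot replicate 4 alone, with signals from 5.73 to 7.57 that overlapped between groups.

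**Figure D2:**
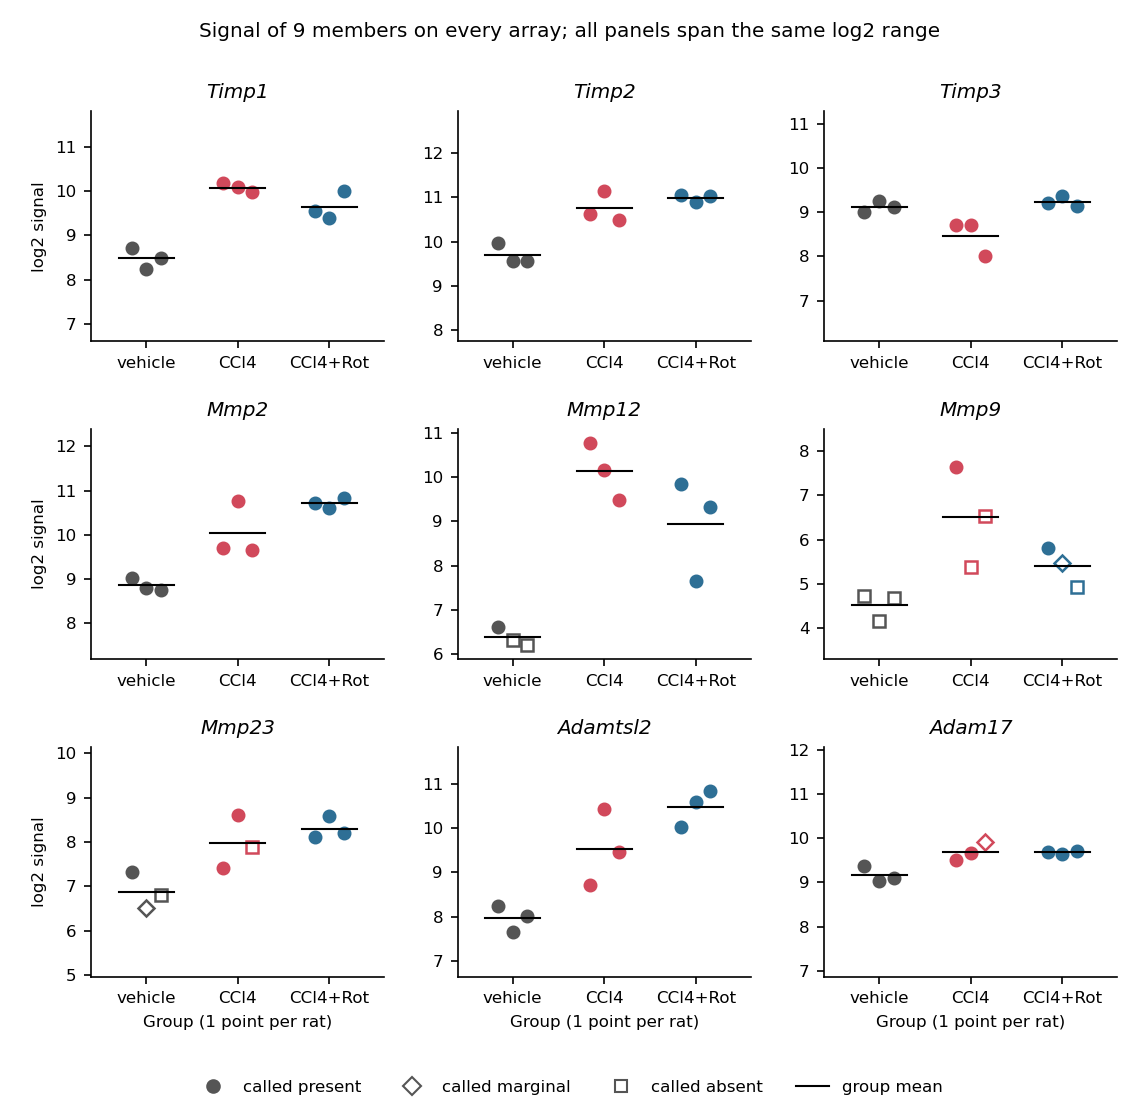
Log2 signal of 9 members on every array, with 1 point per rat, a line at the group mean, and filled points for present, diamonds for marginal and squares for absent calls; each panel covers the same span of log2 units. All panels but that of Timp3 separate vehicle from both CCl4 groups, Timp3 is lowest in CCl4, and Mmp12 varies most among CCl4+Rot rats (7.66 to 9.85).

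The gelatinases cleave denatured collagen and type IV collagen of basement membranes. Mmp2 (Entrez gene 81686, chromosome 19), the gelatinase of stromal cells, read 9.04, 8.80 and 8.75 in vehicle, 9.69, 10.78 and 9.66 in CCl4, and 10.73, 10.61 and 10.84 in CCl4+Rot. The signal of 1 CCl4 rat lay within the CCl4+Rot range and those of the other 2 below it. Mmp2 was 3.65-fold higher in CCl4+Rot than in vehicle (1.87 ± 0.31 log2), with an adjusted p of 0.18 by limma and 0.0052 by the robust fit, which called it with any 1 array left out. Between CCl4 and vehicle the robust call (2.27-fold, adjusted p of 0.041) held in 3 of those 9 fits, those without a CCl4 array, and the difference was 0.82 without CCl4 replicate 2. A second Mmp2 probe set gave 5.78, 6.71 and 6.58 in vehicle, 6.37, 6.53 and 8.28 in CCl4, and 5.91, 5.96 and 6.02 in CCl4+Rot. Its highest signal came from CCl4 replicate 3. Against vehicle it gave 0.70 ± 0.51 in CCl4 (0.09 without CCl4 replicate 3) and -0.40 ± 0.51 in CCl4+Rot. The 2 probe sets also differed in direction between CCl4+Rot and CCl4. The brighter one gave 0.68 ± 0.31 with overlap (adjusted p of 0.75 by limma and 0.62 by the robust fit, and 0.49 without CCl4 replicate 3), and the second -1.10 ± 0.51, lower without overlap (-0.49 without CCl4 replicate 3).

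Mmp9, the gelatinase of neutrophils and macrophages, was near background. Its signals were 4.73, 4.17 and 4.68 in vehicle, all called absent, 7.64 (present), 5.39 and 6.54 in CCl4, and 5.81 (present), 5.46 and 4.94 in CCl4+Rot. Both CCl4 groups lay above vehicle without overlap, with 1 present call in each. For the fold, each vehicle signal was set no lower than a floor, the dimmest signal with a present call on the same array. All vehicle signals of Mmp9 lay above it, so the 3.98-fold higher signal in CCl4 (limma adjusted p 0.25) is the measured fold and not a lower limit. With a higher floor, the 5th percentile of present signals, it was 1.44-fold, which was not tested. The CCl4 mean includes signals called absent. A second Mmp9 probe set was called present on CCl4 replicate 1 alone, at 7.66, and read 1.26 to 3.77 on the other arrays.

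**Figure D3:**
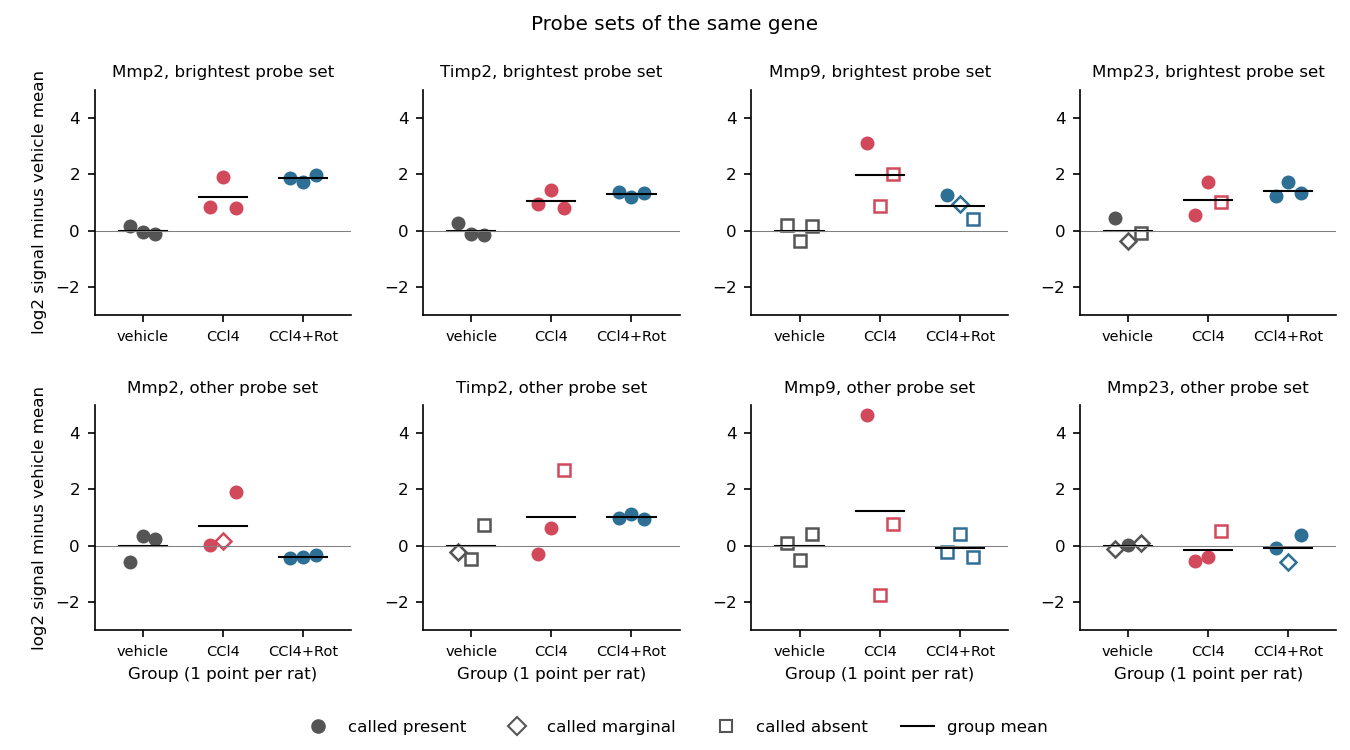
Log2 signal minus the vehicle mean for the brightest probe set of Mmp2, Timp2, Mmp9 and Mmp23 (top) and another probe set of the same gene (bottom), with 1 point per rat and a line at each group mean. The probe sets of Mmp2 differ in direction in CCl4+Rot (1.87 and -0.40), those of Timp2 do not (1.30 and 1.03), and 1 CCl4 rat carries the highest Mmp9 signal in both probe sets.

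Mmp12 showed the largest difference from vehicle among the detected members. The gene (Entrez gene 117033, chromosome 8) encodes macrophage metalloelastase, which degrades elastin. Its log2 signals were 6.60, 6.33 and 6.21 in vehicle, with 1 of 3 called present, 10.77, 10.16 and 9.48 in CCl4, and 9.85, 7.66 and 9.32 in CCl4+Rot. Every rat given CCl4 was above every vehicle rat, and the CCl4+Rot range began far below and ended inside that of CCl4. Mmp12 was 13.5-fold higher in CCl4 than in vehicle (3.76 ± 0.57 log2), with an adjusted p of 0.17 by limma and 0.0081 by the robust fit, lost without vehicle replicate 4 (0.063) or 5. In CCl4+Rot it was 5.90-fold higher than in vehicle (2.56 ± 0.57, adjusted p of 0.25 and 0.041), and the robust call held in 4 of the 9 fits, those without a CCl4 array or CCl4+Rot replicate 5 (up to 0.22, without vehicle replicate 4). CCl4+Rot differed from CCl4 by -1.20 ± 0.57 (adjusted p of 0.75 and 0.66), and -0.56 without CCl4+Rot replicate 5. The summed signal of 7 macrophage markers was 8875 to 12370 in vehicle, 14470 to 19290 in CCl4 and 15770 to 19220 in CCl4+Rot. Of these, Itgam and Trem2 were called present on no array. Gpnmb, a glycoprotein of lipid-laden macrophages, was called higher by the robust fit after CCl4 (3.40 ± 0.46 log2, adjusted p of 0.0087), as was Trem2, which is given no fold. Of the other detected macrophage markers, none was called, and their differences after CCl4 were 0.68 for Cd68, 0.55 for Csf1r, -0.02 for Cd163 and -0.45 for Clec4f, a marker of Kupffer cells. The part of macrophage number in the Mmp12 difference was not tested, and in whole liver more cells of a type and more RNA per cell cannot be told apart.

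The other measured genes of the chromosome 8 cluster were not called, and some were not detected. Mmp13, the rodent interstitial collagenase, read 3.94 to 4.64 in vehicle, 4.52 to 5.81 in CCl4 and 4.52 to 4.85 in CCl4+Rot, with overlapping groups and 3 of 9 present calls, none of them in CCl4. Mmp3, stromelysin-1, which cleaves proteoglycans and activates other pro-MMPs, read 4.43 to 5.55, 5.47 to 7.28 and 4.84 to 5.60, with 7 of 9 present calls. The 7.28 came from CCl4 replicate 3, and the difference between CCl4 and vehicle was 0.99 ± 0.54 log2 with it and 0.39 without it. Mmp10 (stromelysin-2) and Mmp7 (matrilysin) were called absent on every array. Mmp8, the neutrophil collagenase, whose promoter window held no AP-1 motif, read 4.97, 5.79 and 5.26 in vehicle, all absent, 5.98, 6.67 and 7.79 in CCl4, and 5.40, 6.57 and 5.67 in CCl4+Rot. Vehicle and CCl4 did not overlap for Mmp8. CCl4 was 2.78-fold higher as measured (limma adjusted p 0.33), since no vehicle signal lay below the floor. With the higher floor it was 1.77-fold higher, which was not tested. The highest CCl4 signal, from replicate 3, was called absent. The measured difference was 1.47 log2, and 0.98 without CCl4 replicate 3. Mmp11, stromelysin-3, was called absent on every array.

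The membrane-type MMPs act at the cell surface, and Mmp14 is the chief activator of pro-Mmp2. Mmp14 read 8.68, 8.44 and 8.70 in vehicle, 8.42, 8.86 and 9.92 in CCl4, and 9.19, 9.08 and 9.07 in CCl4+Rot. Its difference between CCl4 and vehicle was 0.46 ± 0.36 log2 with all arrays and 0.04 without CCl4 replicate 3, and the CCl4+Rot rats lay above vehicle without overlap. Mmp15 was lower in each CCl4 rat (7.78, 8.16 and 8.36) than in each vehicle rat (8.43, 8.65 and 8.44), a difference of -0.41 ± 0.23 that was not called (limma adjusted p 0.50) and was -0.54 without CCl4 replicate 3. Mmp16 and Mmp24 read 5.20 to 7.46 and 8.01 to 9.24, with the highest signal of each from CCl4 replicate 3. Mmp24 was one of the 2 members lower without overlap between CCl4+Rot (8.40 to 8.50) and CCl4 (8.54 to 9.24), by -0.34 ± 0.24 with CCl4 replicate 3 and -0.11 without it. Of the other MMPs, Mmp19, which cleaves basement membrane proteins, read 7.88 to 8.19 in vehicle, 8.26 to 8.55 in CCl4 and 7.95 to 8.44 in CCl4+Rot, so that CCl4 alone was clear of vehicle.

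Mmp23, a transmembrane-anchored MMP, gave 7.32, 6.50 and 6.80 in vehicle, 7.42, 8.61 and 7.90 in CCl4, and 8.11, 8.59 and 8.20 in CCl4+Rot. Vehicle did not overlap either CCl4 group, with differences of 1.10 ± 0.35 for CCl4 (adjusted p of 0.30 by limma and 0.13 by the robust fit) and 1.43 ± 0.35 for CCl4+Rot (0.30 and 0.069). A second Mmp23 probe set gave 0.76 ± 0.29 (0.57 without CCl4 replicate 3) and 1.08 ± 0.29, whereas the remaining one gave -0.14 ± 0.34 (-0.48) and -0.10 ± 0.34.

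Among the ADAMs, the sheddases called present in every group differed from vehicle by less than 1 log2. Adam17, which releases TNF and ligands of the EGF receptor, read 9.36, 9.03 and 9.09 in vehicle, 9.50, 9.67 and 9.90 in CCl4, and 9.69, 9.64 and 9.70 in CCl4+Rot. Both CCl4 groups lay above vehicle without overlap, and the difference was 0.53 ± 0.17 log2 for CCl4 (1.45-fold, adjusted p of 0.31 by limma and 0.12 by the robust fit) and 0.43 without CCl4 replicate 3. Adam10, which cleaves Notch receptors, read 7.75 to 8.28, 7.88 to 8.89 and 8.17 to 8.26, with overlap. Adam15, an adhesion-linked ADAM, read 7.55 to 7.75 in vehicle, 7.50 to 8.24 in CCl4 and 7.89 to 8.30 in CCl4+Rot, so that CCl4+Rot alone was clear of vehicle. Adam19, known to shed neuregulin, read 7.90, 7.38 and 7.74 in vehicle, 8.06, 8.20 and 9.26 in CCl4 and 8.34, 8.04 and 8.12 in CCl4+Rot. Its CCl4 difference was 0.83 ± 0.33 (limma adjusted p 0.37), and 0.46 without CCl4 replicate 3.

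Adam9, a sheddase known from activated stellate cells, was present on CCl4 replicate 1 alone. It read 5.91, 4.93 and 6.30 in vehicle, 6.70, 6.65 and 8.34 in CCl4, and 6.16, 6.11 and 5.37 in CCl4+Rot. All 3 CCl4 signals were above the other 6. As measured, CCl4 was 2.86-fold above vehicle and 2.55-fold above CCl4+Rot (2.27-fold and 2.17-fold with the higher floor). Neither difference was called (limma adjusted p 0.35 and 0.75). The difference from vehicle was 0.96 without CCl4 replicate 3, whose signal of 8.34 was called absent. Adam8, a protease of leukocytes, was called present on CCl4 replicate 2 alone, and its signals ran from 4.36 to 6.96. Adam11, Adam18 and Adam1a, with 7, 1 and 7 present calls, overlapped between all groups.

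Of the ADAMTS and ADAMTS-like genes, Adamtsl2 alone was called by the robust fit with all arrays, between CCl4+Rot and vehicle. It encodes a secreted glycoprotein without a protease domain that binds fibrillin and the latent TGF-beta complex. It gave 8.25, 7.65 and 8.01 in vehicle, 8.72, 10.44 and 9.47 in CCl4, and 10.02, 10.59 and 10.84 in CCl4+Rot. Vehicle was below both CCl4 groups without overlap, and 1 CCl4 rat lay within the CCl4+Rot range. Adamtsl2 was 5.72-fold higher in CCl4+Rot than in vehicle (2.52 ± 0.44 log2), with an adjusted p of 0.19 by limma and 0.010 by the robust fit, whose call held in 6 of the 9 fits with 1 array left out, not without vehicle replicate 4 or 5 or CCl4+Rot replicate 6 (up to 0.071). Between CCl4 and vehicle the difference was 1.57 ± 0.44 (2.97-fold, 0.26 and 0.061) and between CCl4+Rot and CCl4 it was 0.94 ± 0.44 (0.75 and 0.63). Adamtsl1, another ADAMTS-like glycoprotein, read 5.94, 5.59 and 5.61 in vehicle, all absent, 5.24, 6.07 and 6.70 in CCl4, and 7.04, 6.72 and 6.88 in CCl4+Rot, all present. It was above CCl4 in every CCl4+Rot rat, by 0.88 ± 0.35 (1.84-fold, adjusted p of 0.75 and 0.69), 0.50 without CCl4 replicate 1 and 1.23 without CCl4 replicate 3. Adamtsl4, which takes part in microfibril formation, stayed between 9.38 and 9.93 on all arrays.

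Adamts12 and Adamts7 cleave cartilage oligomeric matrix protein. Adamts12 read 7.84, 7.07 and 7.55 in vehicle, 7.79, 8.47 and 8.55 in CCl4, and 8.51, 8.84 and 8.46 in CCl4+Rot. It overlapped between vehicle and CCl4 (0.78 ± 0.29, adjusted p of 0.35 and 0.19, and 0.64 without CCl4 replicate 3) and was clear of vehicle in CCl4+Rot (1.12 ± 0.29, 2.17-fold, 0.31 and 0.081). Adamts7 read 8.31 to 9.60 with overlap throughout. The proteoglycanases Adamts1, Adamts4, Adamts5, Adamts9 and Adamts15 cleave aggrecan or versican. Adamts1 read 9.16 to 10.03 in vehicle, 9.26 to 9.87 in CCl4 and 9.65 to 9.86 in CCl4+Rot. Adamts4 read 5.55, 4.78 and 5.14 in vehicle, 6.32, 6.38 and 7.53 in CCl4 and 6.15, 6.41 and 6.26 in CCl4+Rot, with vehicle below both other groups. No CCl4 array called it present, so that no fold is given there, and between CCl4+Rot and vehicle the difference was 1.12 ± 0.36 (limma adjusted p 0.43). Adamts9 read 6.55, 5.37 and 6.31 in vehicle, all absent, 6.67, 7.87 and 8.70 in CCl4 and 7.49, 8.37 and 7.78 in CCl4+Rot. As measured, it was 3.18-fold higher in CCl4 and 3.49-fold in CCl4+Rot than in vehicle (2.79-fold and 3.06-fold with the higher floor), with limma adjusted p of 0.31 and 0.40. The CCl4 difference was 1.19 log2 without CCl4 replicate 3, where the gene was called absent. A second Adamts9 probe set, present on all 9 arrays, gave 0.42 ± 0.33 (0.04 without CCl4 replicate 3) and 0.01 ± 0.33. Adamts5, Adamts10, Adamts15 and Adamts19 had 6, 6, 1 and 4 present calls. Of these, Adamts5 and Adamts19 were clear of vehicle in CCl4+Rot.

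As families, the detected MMPs and TIMPs stood higher after CCl4 than detected genes in general, and the ADAMs less so. The median difference between CCl4 and vehicle was 0.49 log2 over the 37 detected members (32 higher and 5 lower), against 0.06 over 10732 detected genes. A gene can count as detected through the group in which it is high. The median was 0.53 over all 53 members, against 0.13 over all genes, and 0.41 over the 14 members present on all 9 arrays, against -0.01. Median centring shifted the median of all genes from 0.13 to -0.23, and that of detected members to 0.13 (23 higher and 14 lower), against -0.30 for detected genes. Without CCl4 replicate 3 the detected members stood at 0.30 (25 higher and 12 lower), against 0.02. By family, 11 of 12 MMPs were higher with a median of 0.92 (0.44 without CCl4 replicate 3), 3 of 4 TIMPs with 0.80 (0.59), 9 of 12 ADAMTS and ADAMTS-like genes with 0.42 (0.10), and 9 of 9 ADAMs with 0.34 (0.20), but 4 of 9 ADAMs with a median of -0.02 after median centring. In CCl4+Rot the detected members stood at 0.49 above vehicle (33 higher and 4 lower), against 0.03 for detected genes, with medians of 0.44 for MMPs, 1.07 for TIMPs, 0.81 for ADAMTS and ADAMTS-like genes and 0.20 for ADAMs. These family values are descriptions without a test.

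**Figure D4:**
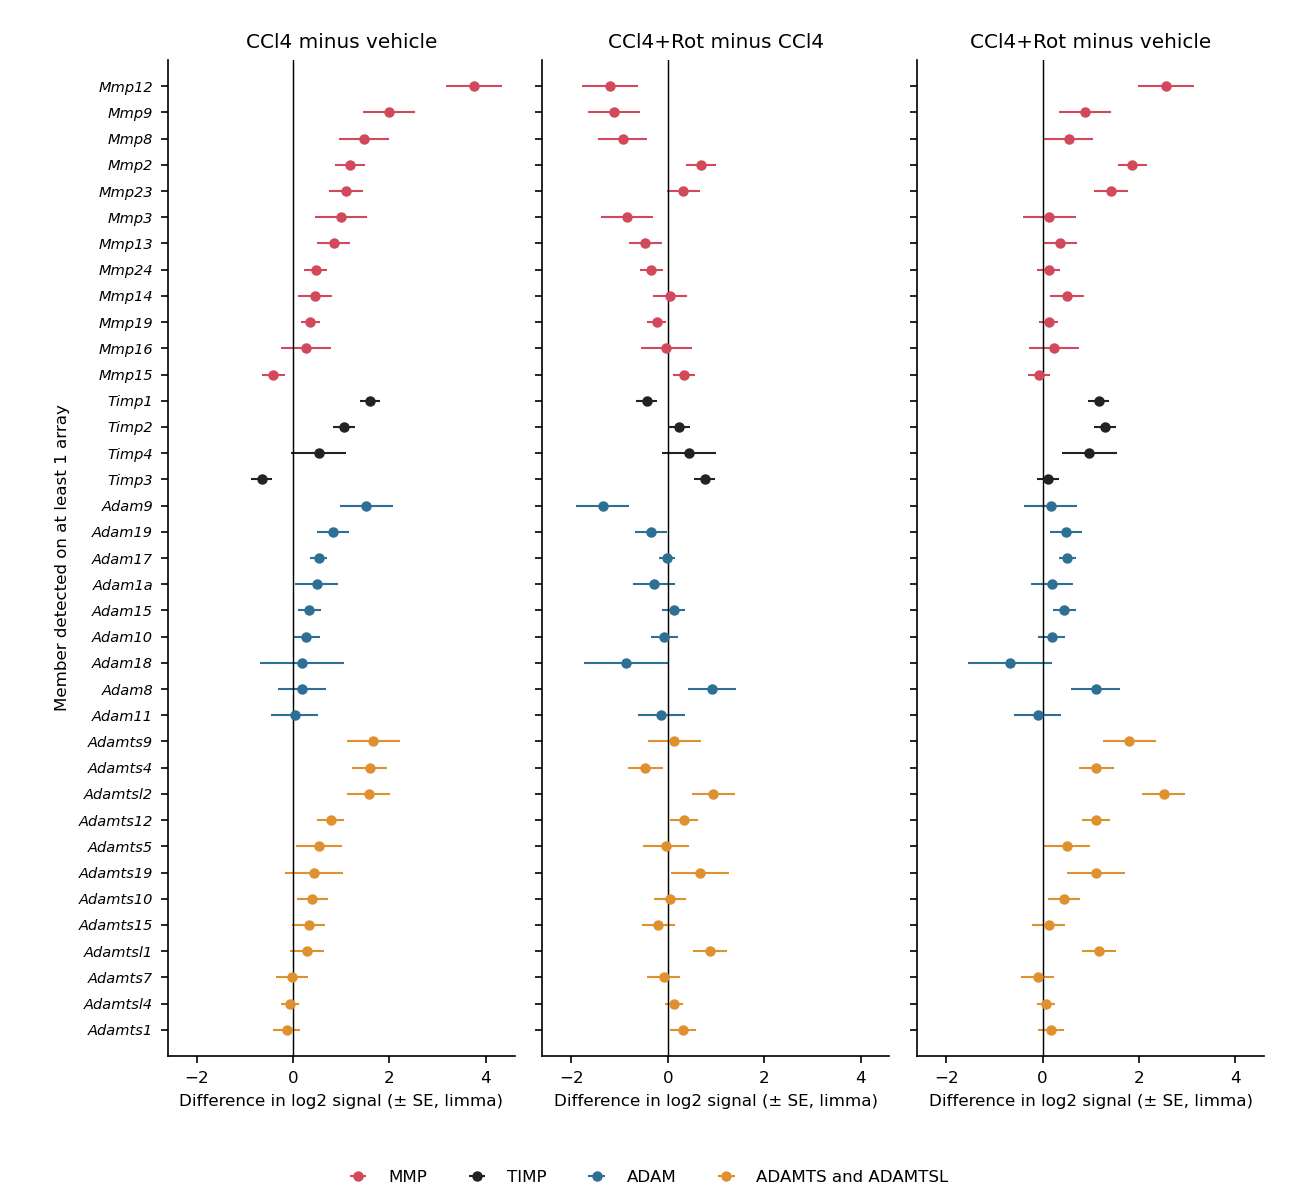
Difference in log2 signal with its standard error (limma, 3 arrays per group) for the 37 members detected on at least 1 array, for the comparison of CCl4 with vehicle (left), of CCl4+Rot with CCl4 (middle) and of CCl4+Rot with vehicle (right), coloured by family and ordered within each family by the first comparison. Most points lie right of 0 in both comparisons with vehicle (32 and 33 of 37), and they lie on both sides between CCl4+Rot and CCl4 (17 higher and 20 lower).

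With all arrays, the comparison of CCl4+Rot with CCl4 showed no common direction. The median over the 37 detected members was -0.03 (17 higher and 20 lower), against 0.00 over detected genes, and it turned to 0.07 with quantile normalization, 0.22 with median centring (0.25 over detected genes) and 0.19 without CCl4 replicate 3 (0.03 over detected genes). Without that array 26 members were higher and 11 lower, against 5818 and 4914 of the detected genes. The MMPs had a median of -0.29 (4 higher and 8 lower, -0.12 without CCl4 replicate 3). The ADAMTS and ADAMTS-like genes stood at 0.13 (8 higher and 4 lower). Without CCl4 replicate 3 they stood at 0.24 (11 higher and 1 lower), and after median centring 11 were higher. The ADAMs had 2 higher and 7 lower with all arrays, but 7 higher and 2 lower without CCl4 replicate 3 and 5 higher after median centring. No single member passed either fit.

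**Figure D5:**
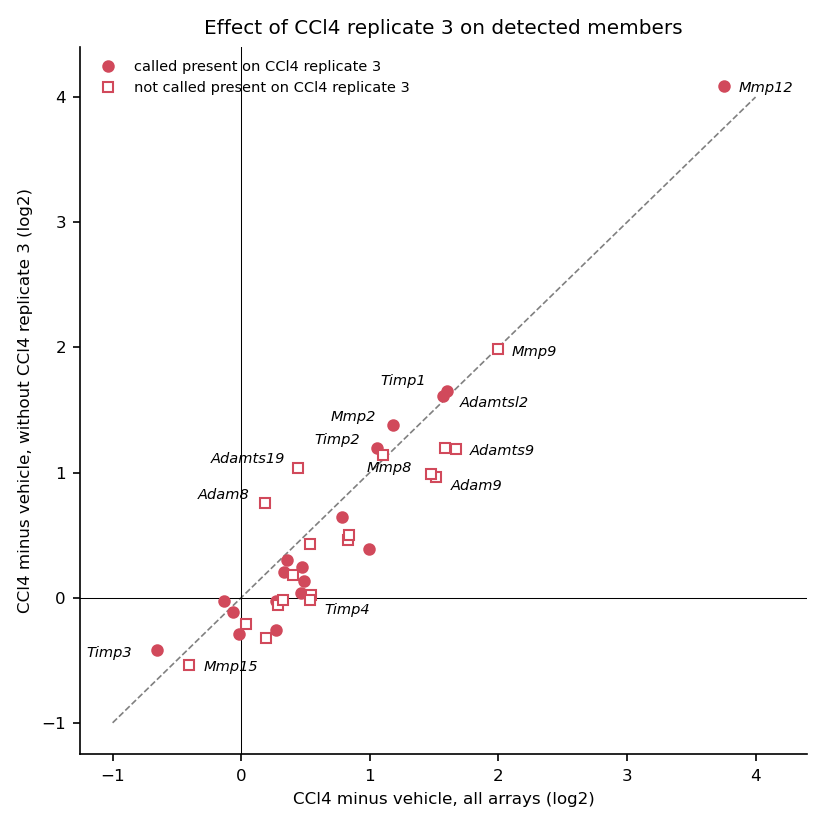
Difference in log2 signal between CCl4 and vehicle of the 37 detected members with all arrays (horizontal axis) and without CCl4 replicate 3 (vertical axis); the dashed line marks equal values and open squares mark members not called present on that array. Mmp12, Timp1, Timp2 and Mmp2 lie above the line, whereas Adam9, Adamts9 and Mmp8 fall below it.

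Genes that activate or restrain these proteases are given from lists chosen by role. Of 20 measured regulators of plasminogen and MMPs, 18 were detected, with a median difference between CCl4 and vehicle of 0.34 (12 higher and 6 lower). The limma test called none. The robust fit called Anxa2 (1.36 log2, adjusted p of 0.013) and S100a10 (1.19, 0.0087), which together form a surface receptor for plasminogen, and Cd44 (1.24, 0.030), a hyaluronan receptor that docks Mmp9. It also called Plaur, the urokinase receptor, which had no present call and for which no fold is given. Anxa2 and S100a10 were also called between CCl4+Rot and vehicle (1.13 and 1.10). No regulator was called between CCl4+Rot and CCl4, where the smallest p among detected ones was that of Serpinb2, plasminogen activator inhibitor 2 (limma adjusted p 0.69), which had 1 present call, in CCl4, and is given no fold. St14, matriptase, had the smallest among those with present calls on at least 3 arrays (-0.87, or -0.52 without CCl4 replicate 3, limma adjusted p 0.75). Plg (plasminogen) differed by -0.23 between CCl4 and vehicle (-0.08 without CCl4 replicate 3) and Reck, a membrane-anchored MMP inhibitor, by 0.20.

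Of 29 measured partners and substrates of the ADAM sheddases, 20 were detected, with a median difference between CCl4 and vehicle of 0.05 (11 higher and 9 lower). The robust fit called Cxcl16, a transmembrane chemokine shed by Adam10, higher (1.14, adjusted p of 0.032) and Il6r, the interleukin-6 receptor shed by Adam17, lower (-0.78, 0.040), and between CCl4+Rot and vehicle it called Cxcl16 alone (1.25, 0.021). Il6r read 11.47, 11.83 and 11.88 in vehicle, 10.94, 11.18 and 10.73 in CCl4, and 11.30, 11.14 and 10.95 in CCl4+Rot. Both CCl4 groups were below vehicle for Il6r without overlap.

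Of 16 measured other matrix proteases and collagen-modifying genes, all detected, the robust fit called 3 higher between CCl4 and vehicle, which were Plod2, a collagen lysyl hydroxylase (1.41, adjusted p of 0.018), Pcolce, an enhancer of procollagen cleavage (1.16, 0.042), and Ctsd, cathepsin D (0.77, 0.029). It called 4 between CCl4+Rot and vehicle (Plod2, Pcolce, Lgmn and Cma1) and none between CCl4+Rot and CCl4, where Cma1, mast cell chymase, had the smallest p (limma adjusted p 0.64). Cma1 was called present on 2 CCl4+Rot arrays alone, and read 5.64, 3.22 and 4.51 in CCl4 and 6.47, 7.67 and 7.45 in CCl4+Rot. Bmp1, the procollagen C-proteinase, had the smallest among those with at least 3 present calls (0.67, limma adjusted p 0.75). Among 18 measured matrix substrates of these enzymes, 15 were detected, and 12 of the 15 were higher in CCl4 than in vehicle with a median of 1.07 (1.13 without CCl4 replicate 3). The robust fit called 4 of them, among them Col1a1 (2.29, adjusted p of 0.0050), Col5a1 (1.66, 0.033) and Col3a1 (1.17, 0.033). The other was Eln, elastin, whose vehicle arrays all called it absent. The fit called 6 between CCl4+Rot and vehicle (Col1a1, Col1a2, Col3a1, Col5a1, Lamb1 and Fbn1), and between CCl4+Rot and CCl4 none, with a median of 0.45 (12 higher and 3 lower). The median of the substrates stood further above vehicle in both groups than that of the 37 detected members (1.52 and 0.49 between CCl4+Rot and vehicle). The latter includes inhibitors and ADAMTS-like genes. By family it was 0.44 for MMPs, 0.20 for ADAMs, 0.81 for ADAMTS and ADAMTS-like genes and 1.07 for TIMPs. This contrast was not tested.

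Summed marker signals of some liver cell types differed between the groups as well. The summed signal of 10 stellate cell and myofibroblast markers was 7440 to 11410 in vehicle, 16450 to 27730 in CCl4 and 24340 to 28560 in CCl4+Rot, and all 10 were higher in CCl4 than in vehicle with all arrays. Without CCl4 replicate 3, Tagln turned from 0.25 to -0.13 and Acta2 went from 0.78 to 0.34. The summed signal of 7 hepatocyte markers was 206500 to 236600, 165600 to 231900 and 225400 to 236600. For 5 neutrophil markers, of which Camp was called present on no array, it was 736.7 to 1666, 1428 to 5685 and 2705 to 6966. For 7 mast cell markers, of which Tpsab1, Tpsb2 and Kit were called present on no array, it was 424.8 to 579.8, 813.8 to 1666 and 1615 to 2474. For 5 cholangiocyte markers, without a present call for Krt7, it was 912.3 to 1066, 2606 to 5402 and 1268 to 2432. A sum follows its brightest markers. Of these markers the robust fit called Spp1 alone, higher in CCl4 than in vehicle, and none between CCl4+Rot and CCl4. The median difference over the 4 detected ones was 0.71 log2 between CCl4 and vehicle and -0.24 between CCl4+Rot and CCl4 (1 higher and 3 lower). Endothelial markers (6, from 9697 to 10860, 7386 to 10230 and 10020 to 10990) and lymphocyte markers (7, from 442.9 to 655.5, 332.0 to 1133 and 561.2 to 709.7, with Cd3d, Cd2 and Cd8a called present on no array) overlapped between vehicle and CCl4. The hepatocyte and neutrophil sums overlapped between these 2 groups too. The part of these cells in the differences of Mmp2, Timp1, Timp2, Mmp8, Mmp9 and Adamtsl2 was not tested.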

How the data were processed

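Per the labels, total RNA was extracted from frozen liver and labelled as biotin cRNA with a 3′ in vitro transcription kit, and the submitters' processing notes name MAS5 and affy. The authors deposited log2 signals with a detection call for 31099 probe sets on 9 arrays. On each array the antilogs, with 2% trimmed from either end, average 500. The genome build and the versions of the tools are not given in the sources used here, so coordinates come only from RefSeq promoters (GRCr8).

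The 57 control probe sets were left out, and the other 31042 entered a linear model of 3 group means (limma 3.58.1, R 4.3.3) without covariates. P values were adjusted by Benjamini-Hochberg over all probe sets, and a call needed an adjusted p below 0.05 and 1.5-fold. The p values judge each difference against the spread between rats, pooled over the 3 groups and moderated across probe sets, and the number of arrays limits the precision. An exact two-sided permutation test of 3 against 3 cannot go below 0.1. The robust fit used limma's trended and robust estimation (statmod 1.5.0). A gene was read by the brightest of its single-gene probe sets (20317 of them). No fold is given where both groups lacked a present call. Nor is one given in some cases where 1 group alone had such a call, among them Adamts4 between CCl4 and vehicle, and Serpinb2. For the folds that are given in such cases, signals of the remaining group were set no lower than the dimmest present signal of the same array. For the folds printed here this changed no signal, so they are measured folds and not lower limits. Group means include signals called absent. Array weights came from limma. Alternatives were other scalings, detection filters, array weights, the methods' t-test, other thresholds and probe set rules, a random block and each array left out. The robust fit with arrays left out was added after seeing the data.

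Named genes were members known from liver, fibrosis or inflammation, those called by either fit, the 5 with the smallest p in each comparison, and, in the related lists, those called or among the 3 smallest. Other members are named to account for all. The rule for members uses symbols alone, but this gene family and the lists were chosen for description with earlier results of these data known. On simulated data for CCl4 against vehicle (31042 probe sets, 200 changed), limma recovered 0%, 40.5% and 55% of changes of 1, 2 and 3 log2, and the robust fit 14.5%, 46% and 53%, with at most 7 false calls. The simulated noise was normal, independent between probe sets and of equal spread on every array. It held no outlying array such as CCl4 replicate 3, so these rates need not hold for the real arrays.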

Additional observations from a re-analysis of the deposited data

How the results depend on the processing

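Between CCl4 and vehicle, where limma called no member, a filter that kept probe sets with 3 or more present calls gave 2 calls (Mmp12 and Timp1), the robust fit 4 and the methods' t-test without adjustment 9 (17.0%, against 5.71% of all probe sets). The robust fit with 1 array left out called 1, 3, 4 or 7. Between CCl4+Rot and vehicle these were 2 (Mmp2 and Timp2), 5, 16 (30.2%, against 6.85%), and, with 1 array left out of the robust fit, 1, 2, 4, 5, 6 or 8. Array weights gave 1 call there (Mmp2), as did limma without CCl4 replicate 2, so that limma with 1 array left out ranged from 0 to 1. No share over all probe sets was taken for the filter, the array weights or the left-out fits. Between CCl4+Rot and CCl4, the methods' t-test without adjustment gave 1 call (Timp3; 1.89%, against 2.74%). The animal number as a replicate block called 0 members in each comparison. Same-numbered animals share only a number (consensus correlation -0.03). The median over detected members between CCl4 and vehicle was 0.13 with median centring and 0.30 to 0.79 with 1 array left out. Between CCl4+Rot and vehicle it was 0.36 with quantile normalization and 0.40 to 0.54 with 1 array left out, and between CCl4+Rot and CCl4 -0.30 to 0.19. The 17 members whose groups did not overlap between CCl4 and vehicle became 11 with median centring and 18 to 27 with 1 array left out, since 2 arrays overlap 3 less often. The 4 between CCl4+Rot and CCl4 became 2 with the mean of the probe sets, for which no share over all genes was taken. With 1 array left out they became 6 to 12 (16.2% to 32.4%, against 17.6% to 26.2% of detected genes). The mean of both Mmp2 probe sets turned its CCl4+Rot minus CCl4 difference to -0.21. The Mmp9 difference between CCl4 and vehicle moved from 3.98-fold to 1.44-fold with the higher floor. The other alternative values covered the 26 member differences tabulated for this purpose and 6 folds against a floor. Of these values, 358 counted as unchanged and 10 gained a call. Limma had called none of the 26, so for them unchanged means the same direction without a call, whatever the size. A fold against a floor counted as unchanged if it moved by less than the spread within the group with present calls. Over all 37 detected members, 7 changed sign between CCl4 and vehicle without CCl4 replicate 3, and 9 between CCl4+Rot and CCl4. The causes were not tested. The number of arrays and, for members near background, the signal limit what these data can show.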
